A study of Mus musculus with 4 samples.

Results

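The integrated stress response is the programme by which a cell lowers general protein synthesis and changes its transcription after amino acid shortage, unfolded protein, haem shortage or viral RNA. Each of these stresses activates a kinase that phosphorylates the translation initiation factor eIF2. Most mRNAs are then translated less, while the mRNA of the bZIP transcription factor ATF4 is translated more, and ATF4 binds target promoters together with C/EBP proteins. TOX4, the HMG box protein removed in these mice, is known as a partner of the PP1 phosphatases, and PP1 is also the enzyme that the PPP1R15 proteins direct to eIF2.

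The genes described here are 10 of the 24984 genes in a table of fragment counts and were taken by symbol from a list of the ATF4 pathway. They were Eif2ak3, which encodes the eIF2 kinase PERK, Ppp1r15a and Ppp1r15b, which encode the regulatory subunits of the eIF2 phosphatase, the transcription factor genes Atf4, Atf3 and Ddit3, and the target genes Sesn2, Trib3, Chac1 and Asns. All 10 had fragments in every library. A mean of at least 1 CPM, the number of fragments of a gene after scaling every library to the same total, was reached by 8 of the 10, and the exceptions were Chac1 and Asns.

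The counts came from TTchem-seq of DP thymocytes, the immature T cells that carry CD4 together with CD8, and the comparison asks how transcriptional output depends on Tox4. In this assay RNA made during a pulse of 4-thiouridine is enriched after fragmentation, so that introns count with exons. There were 2 libraries labelled Tox4 WT, with the genotype Tox4;F/F, in which both Tox4 alleles are floxed and Cre is absent. The other 2 libraries were labelled cKO, with the genotype Tox4;F/F;Lck+, and the floxed exons 4 to 6 are removed by Cre. The study's methods describe C57BL/6 mice of 6 to 8 weeks and a proximal Lck promoter that drives Cre from the DN3 stage on. How the DP cells of this assay were purified is not given in the sources used here. All cells stood in culture before labelling, WT cells included. The labels do not say which mouse gave which library, so the p-values measure the spread between these libraries.

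The library totals lay between 38429786 and 48690591 fragments. Tox4 stood at 74.0 and 70.3 CPM in WT and at 59.3 and 57.2 CPM in cKO, a difference of -0.31 on the log2 scale (SE 0.0998, DESeq2 adjusted p = 0.0453), which edgeR and limma voom did not call (adjusted p = 0.153 and 0.143), and the signal over the whole gene includes the exons and introns outside the deletion. WT replicate 1 stood apart by Xist, at 172 CPM against at most 2.36 CPM in the other 3 libraries. Xist is transcribed from the inactive X chromosome of female cells, so this value stands against the matching of the mice by sex that the methods state. All 9 DP markers were above 1 CPM, and their summed level was 3213 to 3888 CPM in WT and 3066 to 3296 CPM in cKO. Markers of mature single positive cells summed to 484 to 491 CPM in WT and 428 to 491 CPM in cKO. Among the mature markers Ccr7 was called lower and Il7r was called higher in cKO, and of the DP markers Cd8a and Rag1 were called lower. Their part in the values below was not tested. In sum, 5 erythroid and 5 thymic epithelial markers reached at most 0.478 and 1.13 CPM, with Psmb11 at 0 in every library, 4 B cell markers at most 2.12 CPM and 5 myeloid markers 8.48 to 11.2 CPM. Fewer cells of a type and less RNA per cell cannot be told apart in such bulk libraries.

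The 10 genes differed widely in level in DP cells. To set genes side by side, CPM was divided by the deposited gene length in kb. On this scale the transcription factor gene Atf4 was highest, with a mean of 34.9 CPM per kb over the 4 libraries, and Asns, which encodes asparagine synthetase, was lowest, with 0.0318 CPM per kb. The ratio was 1099. Atf4 lay at percentile 99.4 of all 24984 genes and took 39.2% of the summed level of the 10 genes.

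The regulators of eIF2 followed Atf4. Eif2ak3 had a mean of 17.4 CPM per kb, Ppp1r15a 16.6 CPM per kb and Ppp1r15b 13.5 CPM per kb, at percentiles 98.6, 98.5 and 98.1. The library ranges of Eif2ak3 and Ppp1r15a overlapped, as did those of Ppp1r15a and Ppp1r15b, so that the order of these neighbours was within their spread. Thus the kinase gene that starts the response to unfolded protein and both genes of the phosphatase that ends it were at high and similar levels per length.

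Ddit3, which encodes the death-linked factor CHOP, was lower at 4.71 CPM per kb, and Sesn2, a brake on the growth kinase mTORC1, had 1.08 CPM per kb. The remaining genes were under 1 CPM per kb in all 4 libraries. Trib3, a pseudokinase gene, had 0.489 CPM per kb, and Chac1, whose enzyme degrades glutathione, had 0.311 CPM per kb, with overlapping library ranges. Atf3, the stress-inducible ATF gene, had 0.0830 CPM per kb. For comparison, 29.8% of all genes in the table were at or above 1 CPM per kb, and the median of the genes with a mean of at least 1 CPM was 1.46 CPM per kb. Apart from the 3 overlapping pairs, the library ranges of neighbours in this order did not overlap.

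**Figure D1:**
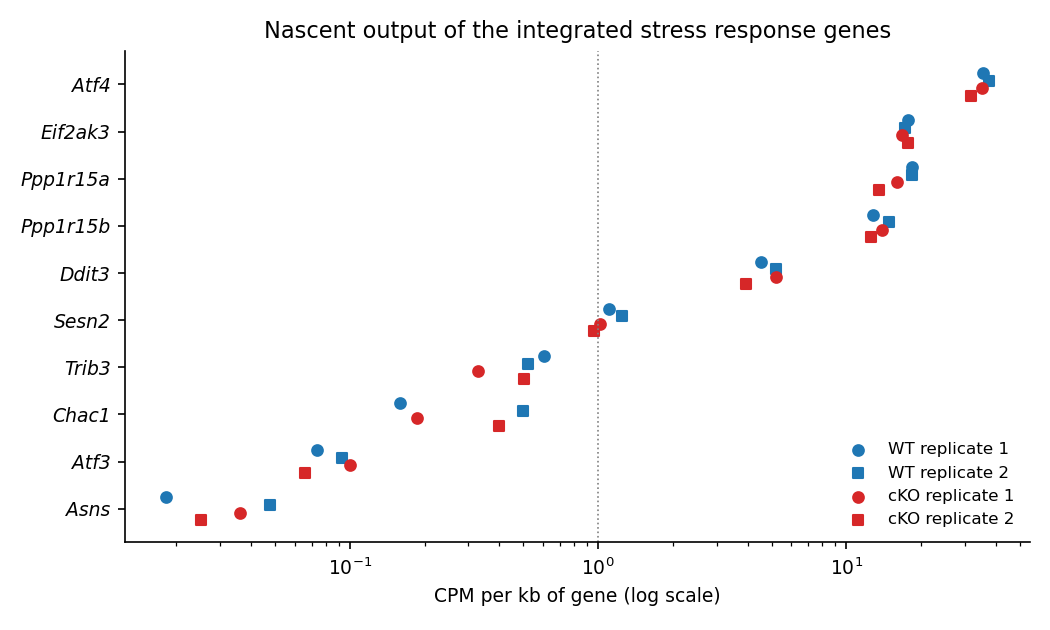
Level of the 10 integrated stress response genes in DP thymocytes, in CPM per kb of gene on a log axis, with each of the 4 libraries as a point (blue for WT, red for cKO, circle for replicate 1, square for replicate 2) and a dotted line at 1 CPM per kb. Atf4, Eif2ak3, Ppp1r15a and Ppp1r15b lie above 12 CPM per kb in every library, and Trib3, Chac1, Atf3 and Asns below the dotted line.

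Of the genes with a promoter sequence to read, those with a mean under 1 CPM per kb were also those with an ATF4 type element in it. The element, called CARE, joins a C/EBP and an ATF site and was searched on both strands as TGATGNAA in windows from 250 bases before to 50 bases after each start in RefSeq, build GRCm38.p6. Windows were found for 9 of the 10 genes, all but Ppp1r15b. CARE was present in 4 of the 9, Atf3, Chac1, Trib3 and Asns, and in 3.97% of all 32851 windows. Sesn2, Ddit3, Eif2ak3, Ppp1r15a and Atf4 had none. Sesn2 was near 1 CPM per kb, with means of 1.17 in WT and 0.992 in cKO. ATF4 type elements outside the windows or with other letters were not searched for. The sites are shown because they mark which of the 9 windows held the letters of CARE. They read 5′ to 3′ on the strand of the gene, with the element in capitals.
Atf3: ccttctcgcacTTGCATCAccaagtccgcg
Chac1: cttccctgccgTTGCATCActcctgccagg
Trib3: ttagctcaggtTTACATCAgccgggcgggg
Asns: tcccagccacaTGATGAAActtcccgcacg

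In Atf3, Chac1 and Trib3 the element read on the opposite strand of the gene, and in Asns it read with the gene. The Atf3 site lay 110 bases upstream of the start (chr1:191183425-191183454, minus strand) and the Chac1 site 193 bases upstream (chr2:119351038-119351067, plus strand). The Asns site lay 23 bases upstream (chr6:7693214-7693243, minus strand), and the Trib3 site began 14 bases downstream of the start (chr2:152344028-152344057, minus strand). Over the whole table, CARE was present in 2.26% of 5538 genes at or above 1 CPM per kb and in 4.79% of 12765 genes below, so that the letters were also more common among low genes in general. A match is a description of the letters and was not tested as a site.

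The cyclic AMP response element (CRE), TGACGTCA, is read by ATF and CREB proteins, and its letters are the same on both strands. It was found in 1 of the 9 windows, that of Ppp1r15a, and in 1.79% of all windows. It is shown because Ppp1r15a is the member with the lowest p-value between genotypes. It lay 12 bases upstream of the start (chr7:45526262-45526291, minus strand).
Ppp1r15a: cgcctctccggTGACGTCAgcacagcgccg
No window held both elements. The endoplasmic reticulum stress element (ERSE) was in none of the 9 windows and in 0.119% of all windows.

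Between genotypes, none of the 10 genes was called. A call required 3 things of a gene: a mean of at least 1 CPM, a change of 1.2-fold or more, and a DESeq2 adjusted p under 0.05 over all genes. These criteria called 3.71% of the 11625 genes with a mean of at least 1 CPM, of which 182 (1.57%) were lower and 249 (2.14%) higher in cKO. edgeR's quasi-likelihood test and limma voom also called 0 of the 10 genes, against 0.499% and 0.525% of the 11625 genes. Ppp1r15a was the only one of the 10 with an unadjusted p under 0.05 in each of the 3 tests, and such p-values were found for 13.5% of the 11625 genes with DESeq2 (6.31% with a lower level in cKO), 15.6% with edgeR and 15.8% with limma voom.

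The kinase gene Eif2ak3 was nearly level. It lies at chr6:70844515-70905241 on the plus strand and spans 60727 bp, most of it intron. It had 1071 and 1047 CPM in WT and 1021 and 1076 CPM in cKO. The WT values lay inside the range of the cKO values. On the log2 scale the difference was -0.02 (SE 0.069, 95% interval -0.15 to 0.12, DESeq2 adjusted p = 0.960). This was the narrowest interval of the 10 genes.

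Ppp1r15a encodes GADD34, the stress-inducible subunit that brings PP1 to phosphorylated eIF2. It lies at chr7:45522917-45526268 on the minus strand, over 3352 bp. It had 61.8 CPM in both WT libraries, 53.8 CPM in cKO replicate 1 and 45.4 CPM in cKO replicate 2. Both cKO libraries were below both WT libraries, and the cKO libraries lay further apart than the WT libraries. The cKO level was 0.80 of the WT level (95% interval 0.685 to 0.935), or -0.32 on the log2 scale (SE 0.115, unadjusted p = 0.0051, DESeq2 adjusted p = 0.0932). The adjusted p was 0.236 with edgeR and 0.208 with limma voom. Leaving out each library in turn gave log2 fold changes from -0.44 to -0.21 and DESeq2 adjusted p from 0.248 to 0.998. Tulp2, on the opposite strand, overlapped Ppp1r15a by 730 bp in RefSeq and by 11 bp in the deposited spans, and it held 4 and 3 fragments in the WT libraries and 0 in both cKO libraries.

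Ppp1r15b encodes CReP, the subunit that is made without stress, and lies at chr1:133131166-133139800 on the plus strand. It had 110 and 128 CPM in WT and 120 and 108 CPM in cKO. The genotypes overlapped, with a log2 fold change of -0.06 (SE 0.103, 95% interval -0.27 to 0.14, DESeq2 adjusted p = 0.864). The catalytic subunits of PP1 had log2 fold changes of -0.13 for Ppp1ca, 0.06 for Ppp1cb and -0.01 for Ppp1cc, and none was called. These 3 genes encode the enzyme that both PPP1R15 proteins bind and were named after their values were seen.

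Atf4 lies at chr15:80255184-80257545 on the plus strand, within 2362 bp. It had 83.7 and 88.3 CPM in WT and 82.8 and 75.1 CPM in cKO. Both cKO libraries were below both WT libraries, cKO replicate 1 by less than 1 CPM. The log2 fold change was -0.13 (SE 0.099, 95% interval -0.32 to 0.07, DESeq2 adjusted p = 0.639), and it ranged from -0.19 to -0.06 when each library was left out in turn. ATF4 is mainly regulated by translation, and ATF4 protein and phosphorylated eIF2 were not measured in these counts.

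The ATF4-induced factor genes were not separated by genotype. Ddit3, at chr10:127290793-127296288 on the plus strand, had 24.9 and 28.5 CPM in WT and 28.5 and 21.6 CPM in cKO, which overlapped. Its log2 fold change was -0.10 (SE 0.163, 95% interval -0.42 to 0.22, DESeq2 adjusted p = 0.873). Its span overlaps Mbd6 by 77 bp and Mars by 68 bp, both on the opposite strand. Atf3, at chr1:191170297-191183333 on the minus strand, had 0.962 and 1.21 CPM in WT and 1.30 and 0.855 CPM in cKO. These came from 34 to 59 fragments a library. The groups overlapped, and the log2 fold change was -0.02 with a 95% interval from -1.20 to 1.16.

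Sesn2 and Trib3 were lower in both cKO libraries than in both WT libraries, without passing the test. Sesn2, at chr4:132492807-132510456 on the minus strand, had 19.5 and 21.9 CPM in WT and 18.0 and 17.1 CPM in cKO. Its log2 fold change was -0.25 (SE 0.158, 95% interval -0.56 to 0.07, DESeq2 adjusted p = 0.532), which became -0.34 without WT replicate 1 and -0.15 without WT replicate 2. Trib3, at chr2:152337425-152344060 on the minus strand, binds the kinase AKT and holds back ATF4 and CHOP. It had 4.01 and 3.47 CPM in WT and 2.19 and 3.32 CPM in cKO, from 84 to 171 fragments a library. The log2 fold change was -0.44 (SE 0.367, 95% interval -1.16 to 0.28, DESeq2 adjusted p = 0.679), and the highest cKO library was close to the lowest WT library. Leaving out cKO replicate 1 gave -0.17, and leaving out cKO replicate 2 gave -0.78.

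Chac1 and Asns were too low for DESeq2 to give an adjusted p. Chac1, at chr2:119351242-119354327 on the plus strand, had 0.493 and 1.54 CPM in WT and 0.572 and 1.23 CPM in cKO. Replicate 2 was above replicate 1 by 3.13-fold in WT and 2.15-fold in cKO, so the libraries of a genotype differed more than the genotype means of 1.02 and 0.902 CPM. Asns, at chr6:7675165-7693209 on the minus strand, had 0.328 and 0.863 CPM in WT and 0.651 and 0.453 CPM in cKO, from 14 to 42 fragments a library. The 95% interval of the log2 fold change ran from -1.62 to 1.26 for Chac1 and from -1.80 to 1.55 for Asns. Leaving out WT replicate 1 gave log2 fold changes of -0.78 for Chac1 and -0.66 for Asns, and leaving out WT replicate 2 gave 0.88 and 0.75. Atf3 had no adjusted p either. At this depth a change of 2-fold in either direction lies inside the intervals of all 3 genes.

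**Figure D2:**
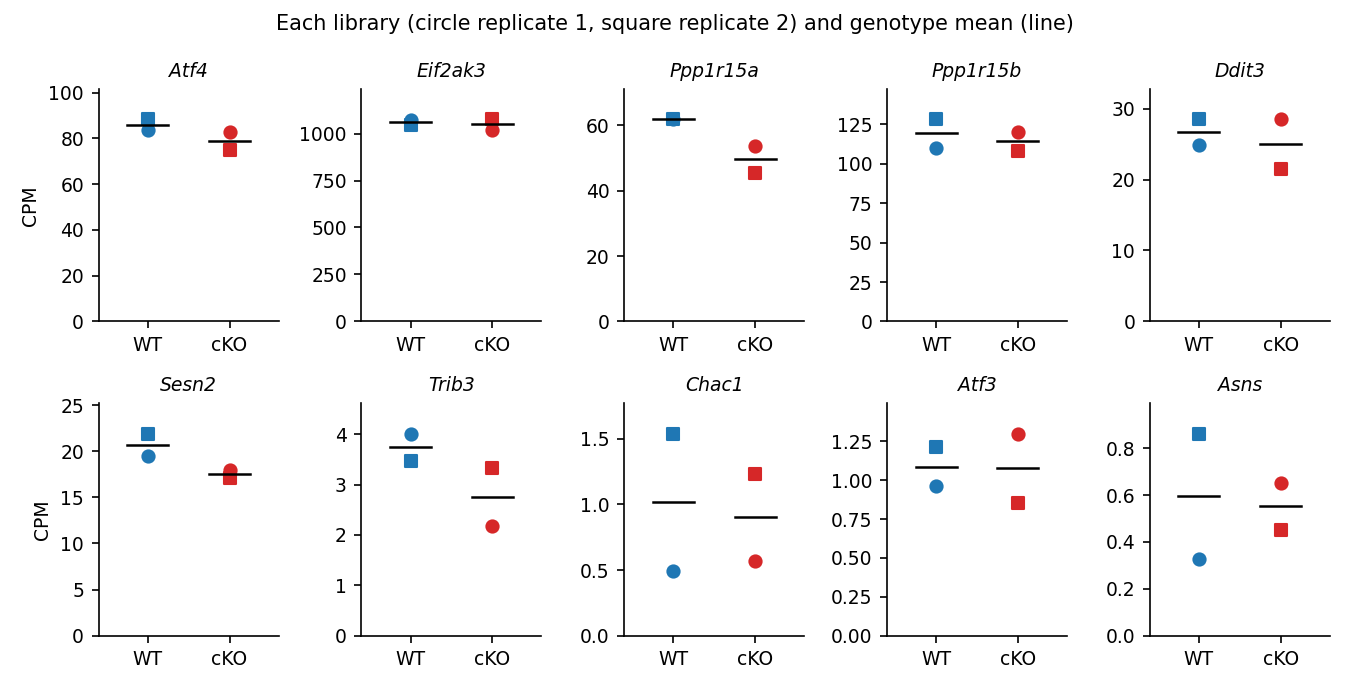
CPM of each of the 10 genes in the 2 WT (blue) and 2 cKO (red) libraries, circles for replicate 1 and squares for replicate 2, with a line at the mean of each genotype and every axis from 0. Both cKO points lie below both WT points for Atf4, Ppp1r15a, Sesn2 and Trib3, and the genotypes overlap for the other 6 genes.

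As a list, the 10 genes all had a log2 fold change below 0, with a median of -0.12, and the 8 with a mean of at least 1 CPM had a median of -0.11. Over the 11625 genes the median was 0.00 after rounding, and 49.8% were below 0, as were 55.8% of all genes with an estimate. Of these 8 genes, 4 had both cKO libraries below both WT libraries, against 24.0% of the 11625 genes. None of the 8 had both cKO libraries above both WT libraries, against 24.9%. The direction of the list rested on single libraries. Without WT replicate 2, 5 of the 10 genes were below 0, with a median of -0.01, and without cKO replicate 2 it was 6 of the 10, with a median of -0.06. Without WT replicate 1, the library that stood apart by Xist, all 10 were below 0 and the median was -0.26. Leaving out cKO replicate 1 gave 8 of the 10 and a median of -0.23.

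**Figure D3:**
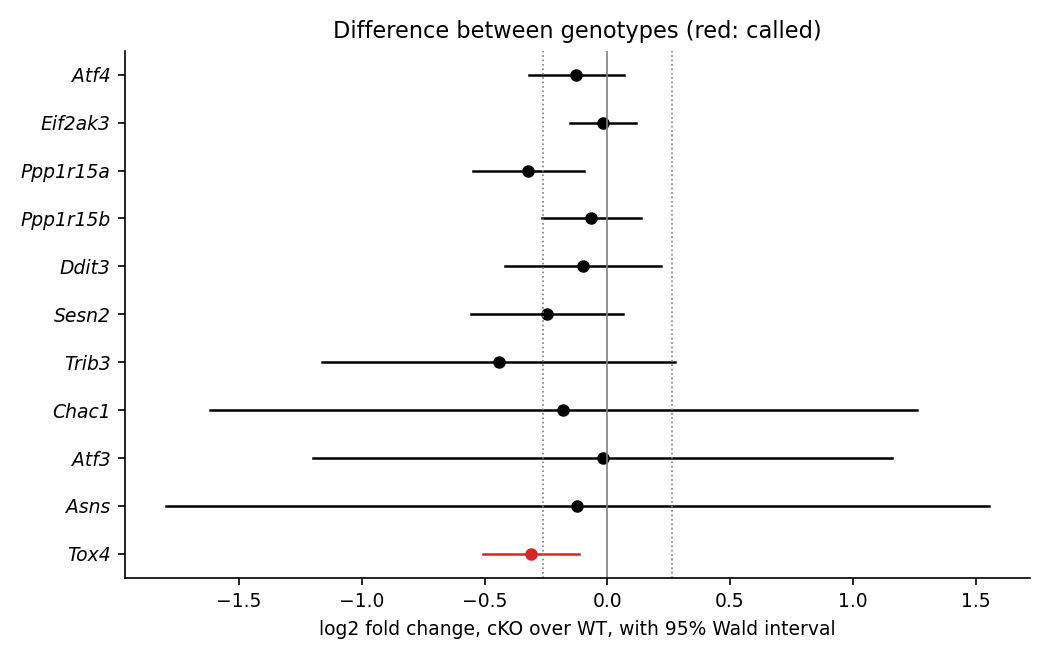
Log2 fold change of cKO over WT for the 10 genes and for Tox4 (points) with 95% Wald intervals (lines) from DESeq2, with dotted lines at a fold change of 1.2 in each direction. The interval of Ppp1r15a, from -0.55 to -0.10, is the only one of the 10 that leaves out 0, and no member is called, while Tox4 is called and drawn in red.

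The profile of Atf4 over the 4 libraries was set against that of 8152 genes with a mean of at least 10 CPM. The measure was the Euclidean distance of log2(CPM + 0.5) centred over the 4 libraries. Among the most similar genes were Nop53 and Prrc2a, with distances of 0.0135 and 0.0167, against a median of 0.238. Among the integrated stress response genes the nearest was Ppp1r15b at 0.117 and the next Sesn2 at 0.134. With 4 libraries these distances describe a shared profile of library differences only.

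Other genes of the pathway and of neighbouring responses were read from the same fit. The neighbouring responses were the IRE1 and ATF6 arms of the unfolded protein response, immediate early genes and p53 targets. The 11 lists held 115 genes, of which 103 had a mean of at least 1 CPM. Of these 4 were called higher and 8 lower in cKO, against 2.14% and 1.57% of the 11625 genes, and 53 had a log2 fold change below 0, against 49.8%. Of the 8, Ddit4 and Sqstm1 were in the lists of ATF4 targets, and the rest in the lists of neighbouring responses. edgeR and limma voom called 2 each, in both cases Jdp2 and Slc7a11.

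Upstream of ATF4, no gene was called. The other eIF2 kinase genes Eif2ak1, Eif2ak2 and Eif2ak4, for HRI, PKR and GCN2, had a median log2 fold change of 0.07. The largest difference was that of the PKR gene Eif2ak2, with 14.9 and 16.7 CPM in WT and 19.3 and 19.0 CPM in cKO (0.27, DESeq2 adjusted p = 0.477). Among the 12 genes of eIF2, its exchange factor eIF2B and the partners of GCN2 the median was -0.02, and the largest difference was 0.24, in the eIF2B subunit gene Eif2b3 (DESeq2 adjusted p = 0.624).

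Among the bZIP partners and relatives of ATF4, 1 of the 5 genes with a mean of at least 1 CPM was called. It was higher in cKO, as were 2.14% of the 11625 genes. Jdp2, whose protein forms dimers with JUN and ATF proteins and represses transcription, had 65.3 and 72.2 CPM in WT and 110 and 128 CPM in cKO. The lowest cKO library was well above the highest WT library. The log2 fold change was 0.79 (SE 0.107, DESeq2 adjusted p = 1.05e-10, edgeR adjusted p = 0.0336). It was called without each library in turn. Of the 8 relatives of the 10 genes 1 was called, also higher, against the same 2.14%. This was Trib1, a pseudokinase gene of the Trib3 family, with 17.0 and 23.5 CPM in WT and 30.9 and 34.6 CPM in cKO (log2 fold change 0.69, SE 0.169, DESeq2 adjusted p = 0.0026, edgeR adjusted p = 0.151). Trib3, at -0.44, lay on the other side of 0, and the difference between the genes was not tested. The call of Trib1 was lost without WT replicate 1, where its log2 fold change was 0.47, and also without cKO replicate 1 (0.78) or cKO replicate 2 (0.60).

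Among the targets of ATF4, 39 of 48 genes in 4 lists had a mean of at least 1 CPM. Their median log2 fold change was 0.02. Of the 39, 1 was called higher and 2 lower in cKO, against 2.14% and 1.57% of the 11625 genes. Slc7a11 encodes the cystine importer xCT and was the only one of 9 transporter genes called. It had 439 and 488 CPM in WT and 726 and 842 CPM in cKO. The groups were far apart, and the log2 fold change was 0.76 (SE 0.0903, DESeq2 adjusted p = 4.99e-14, edgeR adjusted p = 0.0336), called without each library in turn. Its partner Slc3a2, the heavy chain of the importer, named here after its values were seen, had a log2 fold change of 0.22 (DESeq2 adjusted p = 0.393).

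Of 8 genes for the synthesis of amino acids and folate cofactors none was called. Their median was 0.06, and the largest difference was -0.39 for the transaminase gene Got1, with 21.6 and 18.0 CPM in WT and 15.1 CPM in both cKO libraries (DESeq2 adjusted p = 0.208). None of the 14 genes for aminoacyl-tRNA synthetases and tRNA export was called. Their median was 0.00 after rounding, and the largest difference was 0.28 for Vars, the valine enzyme (DESeq2 adjusted p = 0.226).

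In the list of stress, death and autophagy targets 2 of 8 genes were called, both lower, against 1.57% of the 11625 genes, and the median was -0.12. Ddit4, which encodes the mTORC1 inhibitor REDD1, had 75.3 and 74.4 CPM in WT and 53.8 and 54.3 CPM in cKO (log2 fold change -0.47, SE 0.0989, DESeq2 adjusted p = 0.00019, edgeR adjusted p = 0.0557). The groups were separated and the replicates close together, but the call was lost without cKO replicate 1 (log2 fold change -0.46) or cKO replicate 2 (-0.48), with little change in size. Sqstm1, the gene of the autophagy receptor p62, had 129 and 115 CPM in WT and 93.8 and 92.0 CPM in cKO (log2 fold change -0.40, SE 0.0926, DESeq2 adjusted p = 0.0013, edgeR adjusted p = 0.0963). The call was lost without WT replicate 1 (-0.33), cKO replicate 1 (-0.40) or cKO replicate 2 (-0.39). Leaving out a library also lowers the number of libraries to 3.

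CARE was present in 12 of the 36 target genes with a promoter window, including 5 of 9 in the synthetase list, Aars, Gars, Iars, Tars and Yars, and in 4.51% of all genes. The remaining targets with it were Slc7a11, Slc1a4, Pycr1, Got1, Fgf21, Vldlr and Herpud1. Jdp2 and Slc7a11, the genes called by all 3 tests, carried it too, and Ddit4 and Sqstm1 did not. Slc7a11 held it in both orientations, 66 bases upstream of the start (chr3:50443661-50443690, minus strand) and 47 bases upstream (chr3:50443642-50443671, minus strand), and Jdp2 held it 33 bases upstream of an annotated start that lies inside the deposited span (chr12:85599372-85599401, plus strand). These sites are shown beside those of the lower genes because they share the letters at a higher level, a mean of 7.93 CPM per kb for Slc7a11 and 2.30 CPM per kb for Jdp2. The 5 synthetase genes had 1.68 to 2.45 CPM per kb and Herpud1 had 5.74 CPM per kb. The other targets with CARE, Got1, Slc1a4, Pycr1, Vldlr and Fgf21, were under 1 CPM per kb, from 0.701 down to 0.00366.
Slc7a11, site farther from the start: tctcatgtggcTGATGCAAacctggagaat
Slc7a11, site nearer to the start: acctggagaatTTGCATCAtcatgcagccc
Jdp2: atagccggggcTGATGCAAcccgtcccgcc
Of the other members and list genes with these letters, Trib3, the 5 synthetase genes, Got1, Slc1a4, Herpud1 and the eIF2 gene Eif2s3x were not called. Atf3, Chac1, Asns, Pycr1, Fgf21, Vldlr and Nupr1 had no DESeq2 adjusted p. Differences between these genes in the comparison of genotypes were not tested. Whether the element has a part in any of these values was not tested.

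**Figure D4:**
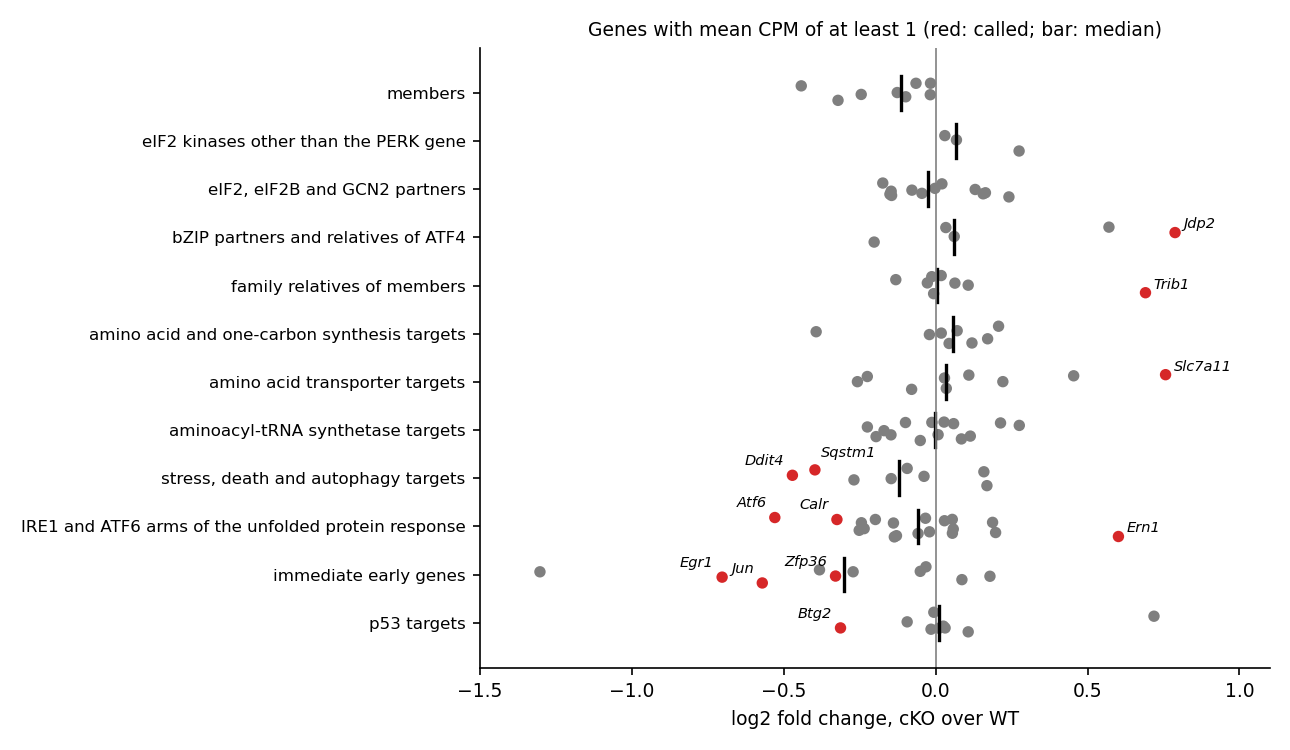
Log2 fold change of cKO over WT for the members and the genes of the 11 lists with a mean of at least 1 CPM. Points are spread vertically for legibility, called genes are red and named, and a black bar marks the median of each list. The members lie from -0.44 to -0.02 with none called, Jdp2, Trib1, Slc7a11 and Ern1 are the called genes on the right, and 8 called genes lie on the left.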

How the data were processed

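TTchem-seq was done on DP thymocytes in 2 WT and 2 cKO libraries, grouped by sample title. The authors filtered reads with fastp 0.13.1, aligned them with STAR 2.7.9a to GRCm38 (mm10) and deposited expected counts per RefGene gene. Of the values 8.61% were fractions. The methods name STAR gene counts, but the deposited gene lengths in bp, another column, covered whole spans with introns, and the submitters' processing notes also list featureCounts 1.6.1. The labels' extract protocol mentions poly(A) capture, whereas the methods describe rRNA depletion. Whether duplicates were removed is not given in the sources used here. Yeast spike-in RNA was added to the samples, and the values were not normalized to it. Totals were 42626473 and 48690591 fragments in WT and 38429786 and 39760312 in cKO, and fragments are not independent molecules.

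Counts were rounded to whole numbers and fitted over all 24984 genes with the DESeq2 Wald test, as in the study's methods, with default size factors and independent filtering at 0.1. Calls needed a mean CPM of 1 or more, a change of 1.2-fold or more and a Benjamini-Hochberg adjusted p under 0.05. CPM and CPM per kb of deposited length were computed from the library totals and are given as library values or means. Alternatives were edgeR's quasi-likelihood test, limma voom, other size factors and filters, a replicate block and leaving out each library. The fits were tested on simulated data. The text names every member, every called gene of a list or else its largest difference, genes among the 3 closest to Atf4 and genes overlapping a member. Some genes that this rule or the marker lists hold are not reported here. Targets named for a motif were chosen after its matches were seen. The members and lists were chosen with earlier results of these data known. Tests were run with edgeR 4.0.16, limma 3.58.1 and DESeq2 1.42.0 under R 4.3.3. Tables and figures were made in Python 3.11.15 with matplotlib 3.10.9, numpy 2.4.6 and pandas 2.3.3.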

Additional observations from a re-analysis of the deposited data

How the results depend on the processing

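No member that had an adjusted p was called under any alternative: independent filtering off, TMM or total-count factors, a CPM minimum in every library, edgeR, limma voom, the replicate block, a fold change of 1.5, or leaving out a library. Atf3, Chac1 and Asns had no adjusted p in several of them, and the CPM minimum kept 7 of the 10 members. The adjusted p of Ppp1r15a ranged from 0.0860 to 0.416 over the alternatives that kept all libraries. The sign of a member's log2 fold change held in 76 of 77 values from alternatives with all libraries. The exception was Asns, at 0.012 with DESeq2 and the replicate block. Leaving out a library turned the sign in 11 of 40 values. The lowest and highest values were -0.34 and 0.25 for Atf3, -0.30 and 0.085 for Ddit3, -0.66 and 0.75 for Asns, -0.84 and 0.88 for Chac1, -0.18 and 0.054 for Ppp1r15b and -0.060 and 0.028 for Eif2ak3. Of the 11 values, 5 arose without WT replicate 2, 4 without cKO replicate 2 and 2 without cKO replicate 1. The cause was not tested. The list's median ranged from -0.26 to -0.01 without a library. In the 11 lists 12 genes were called. The number fell to 2 with edgeR, limma voom and edgeR with the replicate block. It fell to 5 with DESeq2 and the replicate block or a fold change of 1.5. Without a library, the lone library of a genotype was assumed to vary like the other genotype. Deviations of same-numbered libraries from their genotype means were not correlated (r = -0.03 over 11625 genes). The Rn45s share of fragments was 2.71% and 2.44% in replicate 1 of WT and cKO, and 4.30% and 4.05% in replicate 2. Whether the numbers pair the libraries was not settled by these values. The block is given here only, and it changed no call of a member. Depth limited Atf3, Chac1 and Asns, and 2 libraries a genotype limited every test.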

Other observations

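The IRE1 and ATF6 arms of the unfolded protein response run beside PERK and start from the same signal in the endoplasmic reticulum. Of 19 genes in this list 1 was called higher and 2 lower in cKO, against 2.14% and 1.57% of the 11625 genes, and the median log2 fold change was -0.06. Ern1, the gene of the sensor IRE1, had 126 and 93.3 CPM in WT and 153 and 180 CPM in cKO (0.60, DESeq2 adjusted p = 0.00018, edgeR adjusted p = 0.150), and the call was lost without cKO replicate 2 (0.47), while the log2 fold change was 0.82 without WT replicate 1. Atf6, the gene of the other sensor, had 42.5 and 40.9 CPM in WT and 26.9 and 31.0 CPM in cKO (-0.53, DESeq2 adjusted p = 0.0025, edgeR adjusted p = 0.112). Calr, which encodes the chaperone calreticulin, had 80.3 and 76.9 CPM in WT and 62.5 and 63.2 CPM in cKO (-0.33, DESeq2 adjusted p = 0.0239, edgeR adjusted p = 0.126). The calls of Atf6 and Calr were lost whichever library was left out, with log2 fold changes from -0.64 to -0.42 for Atf6 and from -0.35 to -0.30 for Calr. The sensor genes Eif2ak3, Ern1 and Atf6 thus had log2 fold changes of -0.02, 0.60 and -0.53. None of the 16 genes of this list with a promoter window held CARE.

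Immediate early genes answer growth and receptor signals within minutes, and several, like Ppp1r15a and Atf3, also respond to stress. Of 10 such genes 3 were called, all lower in cKO, against 1.57% of the 11625 genes, 8 had a log2 fold change below 0, against 49.8%, and the median was -0.30. The called genes were Egr1 (19.1 and 16.9 CPM in WT, 10.6 and 11.5 CPM in cKO, -0.70), Jun (41.1 and 53.4 CPM in WT, 35.2 and 28.6 CPM in cKO, -0.57) and Zfp36 (102 and 109 CPM in WT, 78.7 and 89.8 CPM in cKO, -0.33). Their DESeq2 adjusted p-values were 0.0041, 0.0077 and 0.0317 and their edgeR adjusted p-values 0.0932, 0.197 and 0.178. The calls of Egr1 and Zfp36 were lost whichever library was left out, with log2 fold changes from -0.78 to -0.62 for Egr1 and from -0.43 to -0.23 for Zfp36, and that of Jun without WT replicate 2 (-0.36) or cKO replicate 2 (-0.43), while it was -0.76 without WT replicate 1. Of 9 p53 targets with a mean of at least 1 CPM 1 was called, lower in cKO, against 1.57% of the 11625 genes. The median was 0.01. The called gene was Btg2, with 368 and 436 CPM in WT and 335 and 313 CPM in cKO (-0.31, DESeq2 adjusted p = 0.0200, edgeR adjusted p = 0.211). The Btg2 call was lost without WT replicate 2, where the log2 fold change was -0.18, and also without cKO replicate 1 (-0.35) or cKO replicate 2 (-0.27).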
